A study of Cricetulus griseus with 40 samples.

Results

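The early shift of a CHO-S batch culture is the change in RNA between 72 and 84 h after seeding and 96 and 108 h after seeding. CHO-S cells come from the ovary of a Chinese hamster, grow unattached and serve as hosts for recombinant protein production. Here the libraries titled 96 h and 108 h (8 in all, 4 per time) are set against those titled 72 h and 84 h (8 in all, 4 per time), 16 of the 40 libraries of a series sampled every 12 h up to 180 h. All cells had the same medium with added L-glutamine, an anti-clumping agent and antibiotics, in shake flasks at 37°C, and the labels give no difference between the groups other than the time since seeding. The design text gives n = 4 for the batch culture, but the flask of each library is not labelled, so the p-values measure the spread between libraries of a time, which may be partly technical.

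In batch culture nothing is fed after seeding, and cells that first divide quickly later meet falling nutrients and rising waste. Dividing cells make RNA for copying DNA in S phase and for condensing and pulling apart chromosomes in mitosis, and the E2F factors switch on much of it. Cells that leave rapid division often enlarge their lysosomes, the acid compartments that break down and recycle cell material, and secrete more matrix proteins and proteases.

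The values are FPKM (fragments per length of transcript, scaled to the library total), summed for each gene ID. A gene counted as higher or lower where limma's adjusted p on log2(FPKM + 1) was below 0.05. Changes are means of log2(FPKM + 1) at 96 and 108 h minus those at 72 and 84 h, given with their standard error (SE), and this scale understates the change of genes with low values. Of 12259 genes tested, 491 (4.01%) were higher and 957 (7.81%) were lower at 96 and 108 h, or 11.8% in either direction. The median change of all genes was 0.01. At least 2-fold changes were 36 rises and 0 falls. When each of the 16 libraries was left out in turn, 306 of the rises and 600 of the falls held their call every time, and every gene named below as risen or fallen is among these unless another count is given. All 8 later libraries lay above all 8 earlier ones for 69 genes (0.563%) and below them for 112 genes (0.914%). FPKM hold no read counts, so depth is known only in relative terms. This relative depth, estimated from the steps of low FPKM, was 0.96 to 1.17 at 96 and 108 h and 0.854 to 0.956 at 72 and 84 h, so it moved with the comparison, and its part in the results was not tested.

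The libraries also differed within a time. A shared axis held 64.6% of the variance within times, and replicate 1 of 96 h and replicate 4 of 84 h lay farthest out on it. Without replicate 1 of 96 h, 1616 of the 12259 genes were higher and 2051 lower, and without replicate 1 of 108 h 622 were lower. List counts given below without replicate 1 of 96 h are to be read beside the totals of that fit. Without both outlying libraries the counts were 1515 and 2036. No called gene was called in the opposite direction in any of these fits. Of 20 markers of other cell types (blood, epithelium, endothelium, liver, nerve and others) 9 were at 0 in all 16 libraries and 19 stayed below 1 FPKM. Their summed level was 0.969 to 1.49 FPKM at 96 and 108 h and 0.671 to 2.00 FPKM at 72 and 84 h. Of 10 markers of fibroblast-type cells 5 were measured, among them vimentin and S100a4, while Cdh2, Cdh11 and Thy1 were listed at 0. The collagen genes Col1a1 and Col1a2 reached at most 0.0288 FPKM. A listed 0 may also be an estimate that failed. In a bulk sample fewer cells of a kind and less RNA per cell cannot be told apart.

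Genes that act in G2 phase and mitosis were mostly lower, with falls in 40 of the 47 that were measured, 0 rises and a median change of -0.61. The mean log2 level of the list was 4.86 to 5.49 (median 5.24) in the later libraries and 5.47 to 5.94 (median 5.82) in the earlier ones, with a slight overlap. The calls without replicate 1 of 96 h were also 40.

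**Figure D1:**
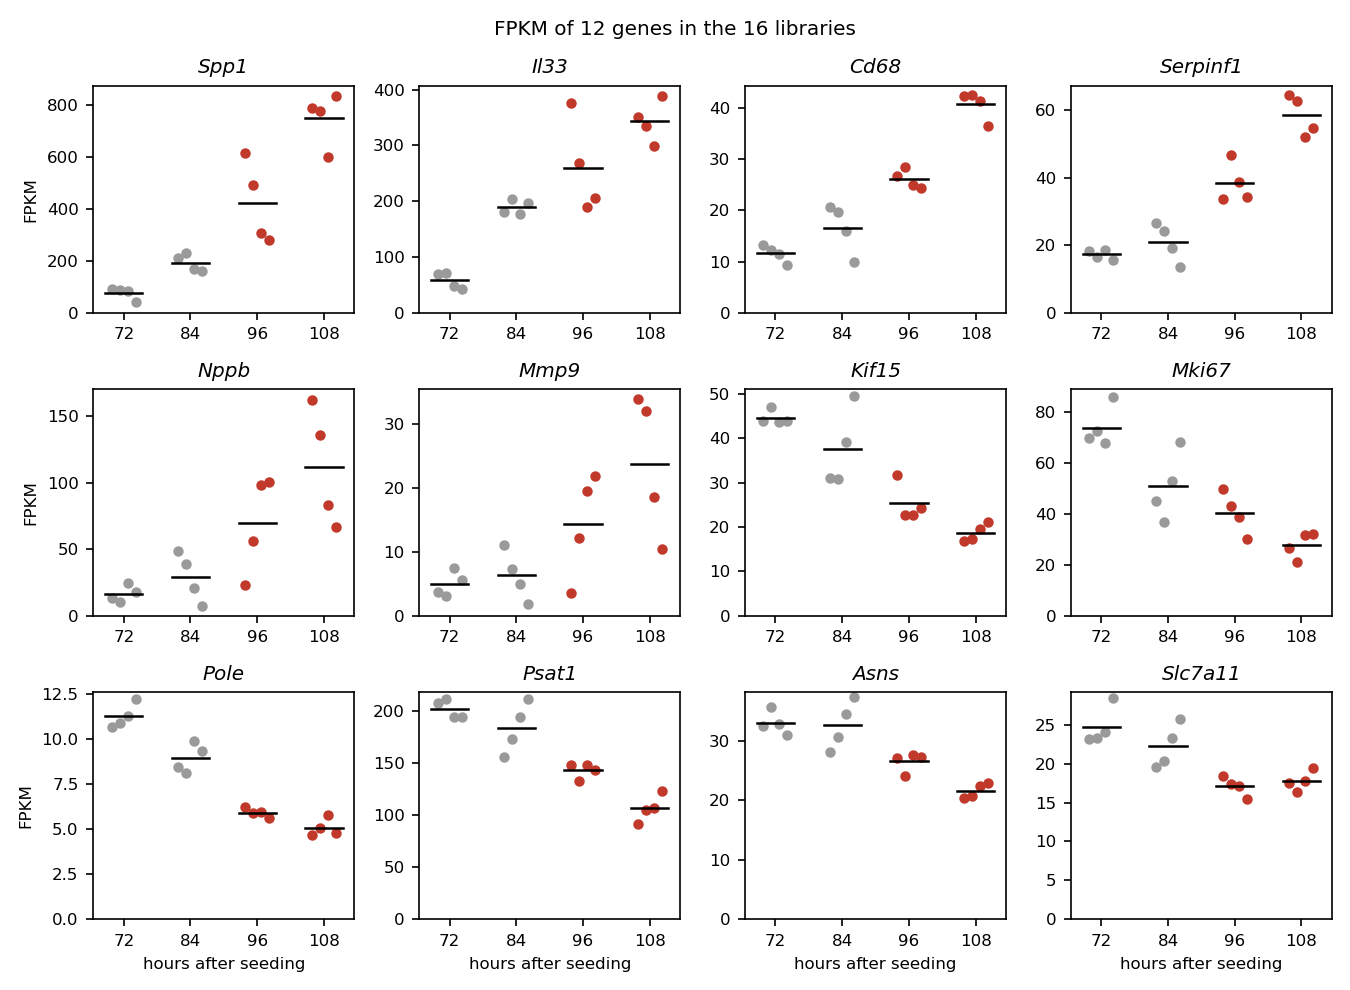
FPKM of 12 genes (vertical axes, linear and starting at 0) in each of 16 libraries at 72, 84, 96 and 108 h after seeding; points are single libraries (red at 96 and 108 h, grey at 72 and 84 h) and black lines are the means of 4 libraries. Spp1, Cd68, Serpinf1, Pole, Psat1, Asns and Slc7a11 show no overlap between the later 8 and the earlier 8 libraries, whereas the libraries of Nppb and Mmp9 overlap, with replicate 1 of 96 h the lowest of the later ones.

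The mitotic motor gene Kif15 had the largest fall among genes with a symbol. It had 16.8 to 31.6 FPKM (median 21.9) at 96 and 108 h, against 30.7 to 49.4 FPKM (median 43.7) at 72 and 84 h (log2 change -0.88 ± 0.10 SE, adjusted p = 1.31e-04). The groups overlapped only between replicate 1 of 96 h and 2 libraries of 84 h. Mki67, the proliferation marker Ki-67 that coats mitotic chromosomes, had 21.0 to 49.7 FPKM (median 31.9) in the later libraries and 36.8 to 85.8 FPKM (median 68.0) in the earlier ones (-0.85 ± 0.13, adjusted p = 0.00121). Its mean was 50.8 ± 13.4 FPKM at 84 h and 73.9 ± 8.14 FPKM at 72 h (SD, n = 4), a step that did not pass on its own.

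Other mitotic genes changed by similar amounts. Top2a, the topoisomerase that untangles sister chromosomes, had a median of 140 FPKM at 96 and 108 h and 233 FPKM at 72 and 84 h (-0.75 ± 0.13). Ect2 and Anln, which act in cytokinesis, fell by 0.78 and 0.76 on the log2 scale, and Knl1, a scaffold of the kinetochore, fell by 0.74. The kinesin genes Kif2c (24.3 to 41.4 FPKM later, 44.6 to 64.0 FPKM earlier) and Kif20a (20.7 to 31.7 FPKM later, 35.1 to 48.0 FPKM earlier) were the mitotic genes whose groups did not overlap. Cyclin B1, Ccnb1, which drives entry into mitosis with Cdk1, had a median of 85.9 FPKM later and 138 FPKM earlier (-0.67 ± 0.09, adjusted p = 4.20e-04), and Cdk1 itself fell by 0.50.

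DNA replication genes fell in 25 of 42 cases, with 0 higher and a median of -0.40 (27 lower without replicate 1 of 96 h). Of the factors that mark and license origins, Orc1 had 6.98 to 11.9 FPKM (median 10.1) in the later libraries and 13.3 to 18.4 FPKM (median 16.3) in the earlier ones (-0.73 ± 0.07, adjusted p = 4.24e-05), with no overlap. Cdc6, the loader of the replicative helicase, had 7.74 to 12.9 FPKM against 12.3 to 20.2 FPKM (-0.74 ± 0.07, adjusted p = 4.63e-05), overlapping by a single later library.

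The helicase and polymerase genes moved alike. Mcm6 had 37.5 to 54.9 FPKM at 96 and 108 h, against 59.9 to 77.0 FPKM at 72 and 84 h (-0.65 ± 0.07), and Mcm4 had 34.3 to 49.3 FPKM against 57.3 to 72.0 FPKM (-0.62 ± 0.06). Pole, the catalytic subunit of the leading strand polymerase, had 4.68 to 6.21 FPKM against 8.11 to 12.2 FPKM (-0.77 ± 0.06, adjusted p = 1.80e-05). None of these 3 genes overlapped between the groups. Mcm2 is a helicase subunit named for its role, and it did not pass, with 17.3 to 49.3 FPKM later, 15.9 to 55.9 FPKM earlier and a log2 change of -0.05 ± 0.25. Its value moved by 0.48 per SD of the axis within times, and its sign turned with array weights (0.1206) and with 6 of the 16 libraries left out in turn (0.0041 to 0.1081).

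Genes upstream of S phase were less uniform. Of 21 genes of G1/S control and E2F targets 10 fell and 1 rose, and the median was -0.24 (13 lower and 2 higher without replicate 1 of 96 h, and 0 higher without any 1 of 11 others). The repressor E2f8 had 6.64 to 10.5 FPKM later and 11.6 to 16.6 FPKM earlier (-0.60 ± 0.07, adjusted p = 1.94e-04), and the phosphatase gene Cdc25a, which activates cyclin-dependent kinases, had 10.7 to 13.4 FPKM later and 14.8 to 19.2 FPKM earlier (-0.42 ± 0.06). Neither overlapped between the groups. The D cyclin Ccnd1, in contrast, had medians of 90.3 FPKM later and 40.3 FPKM earlier (0.96 ± 0.38, adjusted p = 0.115). It did not pass with all 16 libraries, which ran from 19.8 to 113 FPKM later and from 13.0 to 72.5 FPKM earlier, and passed without replicate 1 of 96 h (adjusted p = 0.0138).

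Among 16 measured brakes on the cell cycle 4 rose and 1 fell (median 0.23). Gadd45b, a stress-induced growth inhibitor, had 5.85 to 15.1 FPKM (median 11.3) at 96 and 108 h and 2.20 to 6.56 FPKM (median 4.93) at 72 and 84 h (1.01 ± 0.21, adjusted p = 0.00668). Btg1, an antiproliferative gene, had medians of 262 FPKM later and 180 FPKM earlier (0.56 ± 0.12), and Klf6 rose by 0.30. The kinase inhibitor Cdkn2c went the other way (-0.33 ± 0.08). Cdkn1a, which encodes the inhibitor p21, stayed near the filter, at 0.739 to 1.73 FPKM later and 0 to 1.88 FPKM earlier (0.16 ± 0.21, adjusted p = 0.620), and its sign turned without replicate 1 of 72 h (-0.0181).

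Of 22 histone and chromatin genes 11 fell and 0 rose (median -0.33; 16 lower and 2 higher without replicate 1 of 96 h, and 7 lower without replicate 3 of 96 h or replicate 1 or 2 of 108 h). The mean log2 level of the list was 4.58 to 4.847 in the later libraries and 4.848 to 4.99 in the earlier ones, which touch but do not overlap. Cbx5, the heterochromatin protein HP1 alpha, had 49.7 to 76.5 FPKM later and 79.1 to 118 FPKM earlier (-0.62 ± 0.09, adjusted p = 4.88e-04). The nucleosome remodeller Hells (-0.71 ± 0.13), the chromatin protein Hmgb2 (-0.71 ± 0.13), the histone chaperone Nasp (-0.59 ± 0.11), the methyltransferase Ezh2 (-0.46 ± 0.09) and the maintenance DNA methyltransferase Dnmt1 (-0.44 ± 0.08) fell with it.

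Of 33 splicing factor genes 10 fell and 0 rose (median -0.22), and this count moved with single libraries, with 21 lower and 1 higher without replicate 1 of 96 h, 5 lower without replicate 1 of 108 h and 6 lower without replicate 1 or 2 of 72 h, replicate 3 of 84 h, replicate 2, 3 or 4 of 96 h or replicate 2 of 108 h. Srsf5 had 53.7 to 58.8 FPKM later and 59.1 to 76.3 FPKM earlier (-0.26 ± 0.04), with no overlap. Hnrnpd (-0.53 ± 0.10) and Srsf1 (-0.50 ± 0.12) had larger changes but overlapping libraries, at 97.8 to 174 and 85.6 to 159 FPKM later and 152 to 223 and 125 to 213 FPKM earlier.

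**Figure D2:**
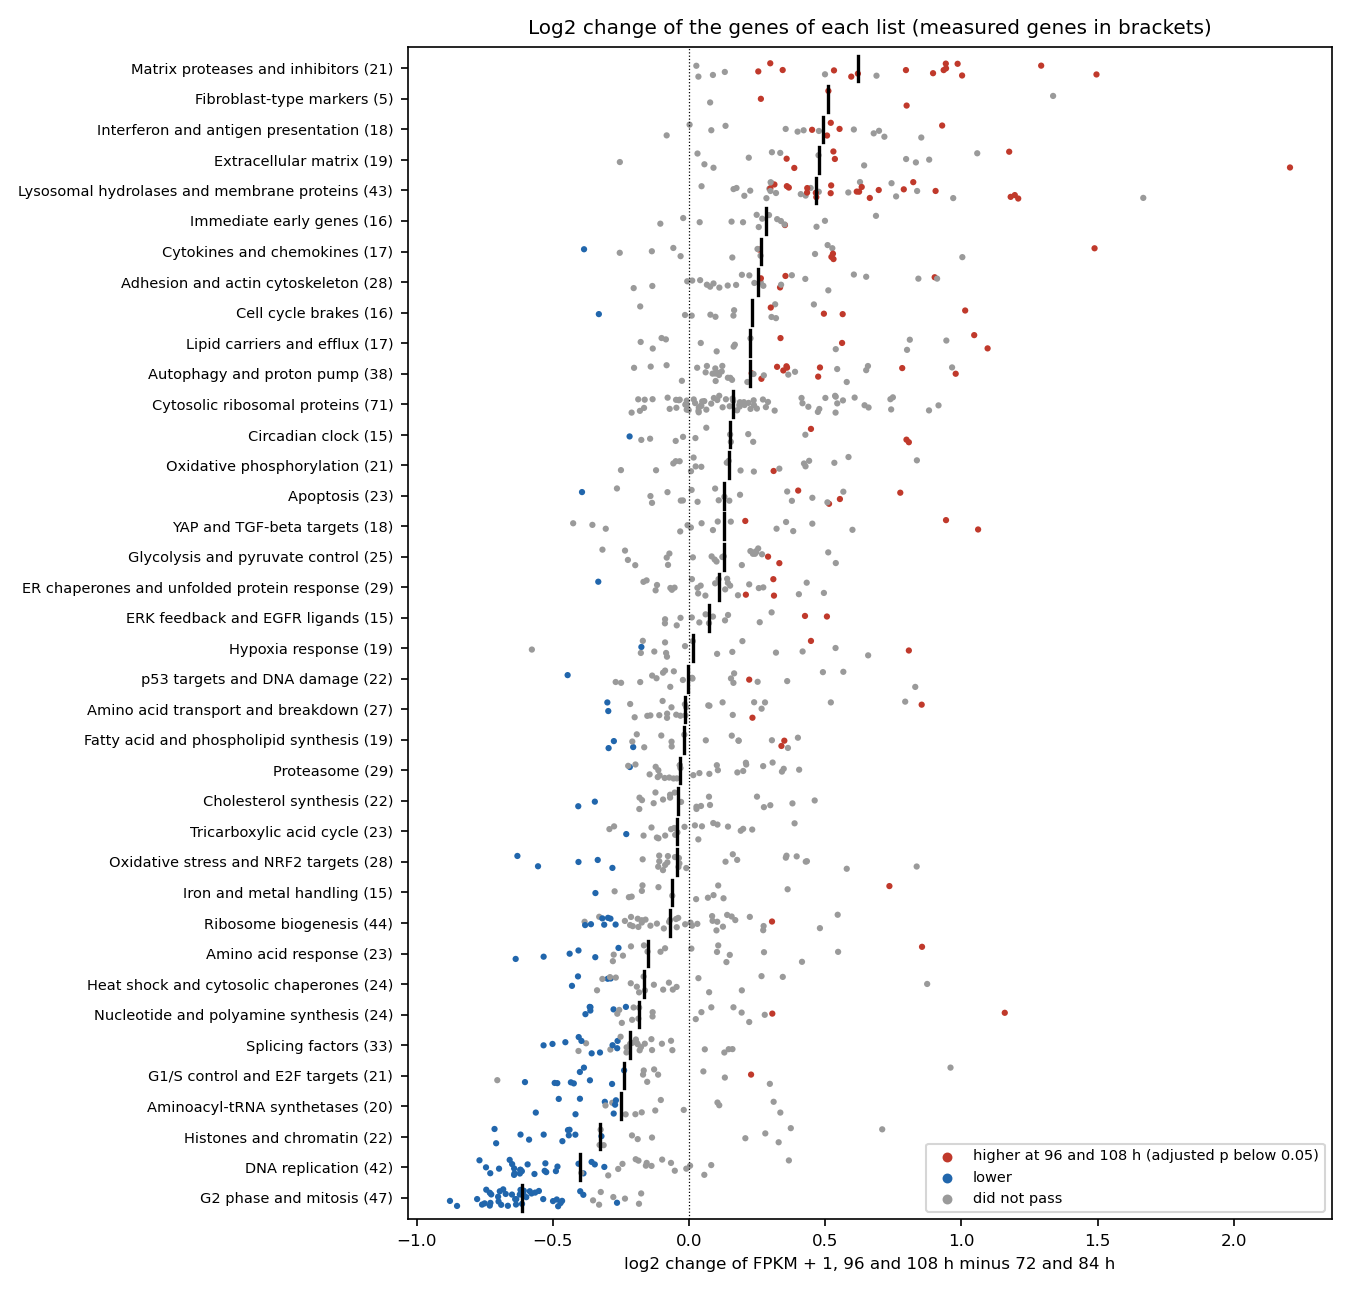
Log2 change of FPKM + 1 at 96 and 108 h minus 72 and 84 h (horizontal axis) for each measured gene of 38 lists (rows, number of genes in brackets, ordered by their medians, the black bars); red points passed as higher, blue points as lower and grey points did not pass. Medians run from -0.61 for G2 phase and mitosis to 0.62 for matrix proteases and inhibitors, and the largest single change is that of Spp1 in the extracellular matrix list, at 2.21.

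The largest rise among genes ranked in the same way as the falls was that of Spp1. The gene, which encodes osteopontin, a secreted phosphoprotein that binds integrins, had 280 to 835 FPKM (median 608) at 96 and 108 h, against 42.5 to 230 FPKM (median 125) at 72 and 84 h (2.21 ± 0.19, adjusted p = 2.76e-05). Its groups did not overlap. Its mean was 75.9 ± 22.4, 193 ± 33.1, 424 ± 159 and 751 ± 104 FPKM at 72, 84, 96 and 108 h (SD, n = 4). Serpinf1, the secreted serpin PEDF, had 33.8 to 64.7 FPKM later and 13.6 to 26.5 FPKM earlier (1.29 ± 0.12, adjusted p = 2.76e-05), again with no overlap.

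Matrix proteases and their inhibitors formed the list with the highest median. Of 21 measured genes 15 rose and 0 fell (median 0.62; 18 higher without replicate 1 of 96 h). The stromelysin Mmp3 had 17.9 to 29.1 FPKM at 96 and 108 h and 8.13 to 16.8 FPKM at 72 and 84 h (0.94 ± 0.10, adjusted p = 8.06e-05), and Mmp19 had 184 to 324 FPKM later and 79.0 to 178 FPKM earlier (0.99 ± 0.14). Neither overlapped. Mmp9, the gelatinase B gene, had a larger change but a wider spread, at 3.66 to 33.9 FPKM (median 19.1) later and 1.89 to 11.1 FPKM (median 5.31) earlier (1.496 ± 0.38, adjusted p = 0.0192).

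Mmp9 was lowest among the later libraries in replicate 1 of 96 h and moved by 0.71 per SD of the axis within times, and the part of that axis in its change was not tested. Membrane-bound Mmp14, which activates other metalloproteinases, rose by 0.62 ± 0.13, and the inhibitor Timp2 by 0.60 ± 0.10. The plasminogen activator Plat rose as well (0.53 ± 0.08).

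In the extracellular matrix list 6 of 19 measured genes rose and 0 fell (median 0.48; 12 higher without replicate 1 of 96 h). Besides Spp1, the secreted collagen-binding protein Aebp1 had 45.0 to 148 FPKM (median 96.2) later and 21.6 to 75.0 FPKM (median 42.6) earlier (1.18 ± 0.25, adjusted p = 0.00715). Sparc, a matricellular protein, had 487 to 759 FPKM later and 349 to 517 FPKM earlier (0.54 ± 0.09). Postn (0.558 to 1.54 FPKM later, 0.190 to 0.560 FPKM earlier) and Dcn (0.495 to 0.980 FPKM later, 0.150 to 0.591 FPKM earlier) rose at levels near the filter of 1 FPKM. Tgm2, a transglutaminase that crosslinks matrix proteins, had 407 to 1240 FPKM later and 186 to 700 FPKM earlier (1.202 ± 0.25, adjusted p = 0.00599).

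Adhesion and cytoskeleton genes passed in 4 of 28 cases, all upward (median 0.25; 9 without replicate 1 of 96 h). The intermediate filament gene Vim had 588 to 768 FPKM at 96 and 108 h and 472 to 636 FPKM at 72 and 84 h (0.26 ± 0.06, adjusted p = 0.0144), and the hyaluronan receptor Cd44 rose by 0.33 ± 0.08. S100a4, a calcium-binding protein of motile cells, had 5427 to 11188 FPKM later and 2787 to 4847 FPKM earlier (0.80 ± 0.16, adjusted p = 0.00580), without overlap. Vim and S100a4 are among the 3 of 5 measured fibroblast-type markers that passed, and the other, the PDGF receptor gene Pdgfrb, kept its call in 4 of the 16 fits without 1 library. Lgals1 and Tagln, the remaining measured members, did not pass. The summed level of that list, led by S100a4, was 9648 to 13472 FPKM later and 4486 to 7736 FPKM earlier.

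Of 43 measured hydrolases and membrane proteins of the lysosome 21 rose and 0 fell (median 0.47), and 33 rose without replicate 1 of 96 h. The mean log2 level of the list was 6.00 to 6.86 (median 6.56) at 96 and 108 h and 5.49 to 6.36 (median 6.00) at 72 and 84 h. Cd68, a glycoprotein of the lysosomal membrane, had 24.5 to 42.7 FPKM later and 9.32 to 20.6 FPKM earlier (1.21 ± 0.12, adjusted p = 4.93e-05). The cysteine protease Ctsb had 560 to 1043 FPKM later and 314 to 555 FPKM earlier (0.91 ± 0.11, adjusted p = 1.72e-04). Both were without overlap, as were Npc2, which carries cholesterol out of the lysosome (757 to 1059 FPKM later, 493 to 717 FPKM earlier), the galactosidase Gla (59.5 to 92.0 FPKM later, 35.2 to 56.8 FPKM earlier) and the tetraspanin Cd63 (1354 to 1958 FPKM later, 673 to 1269 FPKM earlier).

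Other lysosomal genes with large rises had overlapping libraries. Progranulin, Grn, had medians of 510 FPKM later and 230 FPKM earlier (1.196 ± 0.25), and the protective protein Ctsa of 991 and 463 FPKM (1.18 ± 0.27), in the same order of groups. Per SD of the axis within times Grn moved by 0.45 and Ctsa by 0.51. The aspartic protease Ctsd (0.82 ± 0.14), the saposin precursor Psap (0.66 ± 0.14) and the membrane protein Lamp1 (0.52 ± 0.12) also rose. Neu1, the sialidase that Ctsa protects, had 3.90 to 77.4 FPKM later and 2.43 to 30.2 FPKM earlier (1.67 ± 0.58, adjusted p = 0.0767). It passed without replicate 1 of 96 h (adjusted p = 0.00649) or replicate 1 of 84 h (adjusted p = 0.0454).

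The proton pump that acidifies lysosomes and the autophagy genes moved less. Of 38 measured genes 10 rose and 0 fell (median 0.22), while 17 rose and 1 fell without replicate 1 of 96 h and 5 rose without replicate 2 of 108 h. The pump subunits Atp6v1g1 (222 to 312 FPKM later, 127 to 220 FPKM earlier; 0.48 ± 0.08) and Atp6v1d (120 to 148 FPKM later, 81.7 to 116 FPKM earlier; 0.36 ± 0.06) did not overlap between the groups. The LC3-family gene Gabarapl1, which acts in autophagosome formation, rose by 0.36 ± 0.08. Flcn, a sensor of amino acid supply at the lysosome, had medians of 9.59 FPKM later and 6.62 FPKM earlier (0.47 ± 0.11).

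Signalling genes included some of the steepest early rises. Il33, an alarmin cytokine held in the nucleus, had 189 to 389 FPKM (median 317) at 96 and 108 h and 43.1 to 204 FPKM (median 124) at 72 and 84 h (1.49 ± 0.14, adjusted p = 4.03e-05). Nppb, the precursor of brain natriuretic peptide, had 23.4 to 162 FPKM later and 7.50 to 48.6 FPKM earlier (1.99 ± 0.39, adjusted p = 0.00453). Gem, a small GTPase that restrains calcium channels and the actin cytoskeleton, had 23.1 to 54.1 FPKM later and 4.89 to 23.6 FPKM earlier (1.57 ± 0.12, adjusted p = 1.80e-05). Of the libraries of Gem only the lowest later and the highest earlier one touched, whereas those of Nppb overlapped more widely.

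Cytokine genes passed upward in 5 of 17 cases and downward in 1 (8 and 3 without replicate 1 of 96 h, and 0 lower without any 1 of 11 others; median 0.26). Lif, a cytokine of the interleukin 6 family, had medians of 21.3 FPKM later and 15.2 FPKM earlier (0.53 ± 0.12), and Csf2 of 1.41 FPKM later and 0.565 FPKM earlier (0.53 ± 0.10). Immediate early genes, which answer growth signals within minutes, passed in only 1 of 16 cases (median 0.28). That count was 6 without replicate 1 of 96 h and 3 without replicate 1 of 84 h. The gene was Egr2 (0.35 ± 0.09), near the filter of 1 FPKM at 0.969 to 1.72 FPKM later. Earlier it had 0.299 to 0.659 FPKM at 72 h and 0.842 to 1.44 FPKM at 84 h. Egr1 had 8.13 to 13.2 FPKM later and 8.15 to 16.5 FPKM earlier (-0.11 ± 0.12, adjusted p = 0.571), and Myc 1.02 to 13.95 FPKM later and 1.91 to 9.40 FPKM earlier (0.26 ± 0.40, adjusted p = 0.682). In the list of ERK feedback genes and EGF receptor ligands 2 of 15 rose, the feedback inhibitor Spry2 (0.51 ± 0.07) and the phosphatase Dusp1 (0.43 ± 0.11), and 0 fell.

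Of 18 interferon and antigen presentation genes 5 rose and 0 fell (median 0.49), with 11 rises without replicate 1 of 96 h and 3 without replicate 1 of 108 h. B2m, the light chain of MHC class I, had 693 to 914 FPKM later and 439 to 621 FPKM earlier (0.52 ± 0.07, adjusted p = 2.49e-04), with no overlap. The interferon signalling factor Irf9 (0.55 ± 0.09) and the deconjugase Usp18 (0.45 ± 0.07) rose too. This list had the highest median move along the axis within times, 0.42 per SD, and the part of that axis in its change was not tested.

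Apoptosis genes rose in 4 of 23 cases and fell in 1 (median 0.13; 6 and 2 without replicate 1 of 96 h, 2 lower without replicate 4 of 108 h and 0 lower without any 1 of 11 others). The members that rose included the cell death genes Bmf (0.78 ± 0.16), Bid (0.51 ± 0.06) and Bcl2l11 (0.40 ± 0.09) and the death receptor inhibitor Cflar (0.55 ± 0.08). Bid had 47.9 to 68.4 FPKM later and 33.7 to 48.2 FPKM earlier, and Cflar 15.1 to 27.4 FPKM later and 12.1 to 15.7 FPKM earlier. Both overlapped only at their margins. In the clock list 3 of 15 genes rose and 1 fell (2 without replicate 1 of 96 h and 0 without any 1 of 11 others), and the risers were the clock output factor Dbp (0.80 ± 0.18) and the repressors Bhlhe40 (0.81 ± 0.11) and Bhlhe41 (0.45 ± 0.09).

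In the amino acid response, the genes that the factor ATF4 drives when amino acids are short, 6 of 23 fell and 1 rose (median -0.15; 8 and 3 without replicate 1 of 96 h). Psat1, an enzyme of serine synthesis, had 91.2 to 149 FPKM at 96 and 108 h, against 156 to 212 FPKM at 72 and 84 h (-0.64 ± 0.07, adjusted p = 1.31e-04). Asparagine synthetase, Asns, had 20.4 to 27.6 FPKM later and 28.1 to 37.3 FPKM earlier (-0.44 ± 0.06), and the cystine importer Slc7a11 15.5 to 19.4 FPKM later and 19.6 to 28.5 FPKM earlier (-0.41 ± 0.07). None of the 3 overlapped.

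Atf4 itself had 159 to 211 FPKM later and 194 to 249 FPKM earlier (-0.34 ± 0.07, adjusted p = 0.00515). The riser was Nupr1, a stress-induced chromatin protein, with medians of 628 FPKM later and 358 FPKM earlier (0.86 ± 0.17, adjusted p = 0.00470). Ddit3, the stress factor CHOP, had 48.8 to 90.3 FPKM later and 26.2 to 75.9 FPKM earlier (0.41 ± 0.18, adjusted p = 0.157) and passed without replicate 1 of 96 h (adjusted p = 0.0462). Gldc, the decarboxylase of the glycine cleavage system and no member of that list, had 5.13 to 10.1 FPKM later and 1.23 to 4.29 FPKM earlier (1.19 ± 0.09, adjusted p = 1.75e-05).

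Aminoacyl-tRNA synthetases, which load amino acids onto tRNA, fell in 8 of 20 cases with 0 higher (median -0.25; 12 lower without replicate 1 of 96 h). Iars1 had 33.8 to 48.5 FPKM later and 49.4 to 66.1 FPKM earlier (-0.56 ± 0.07, adjusted p = 2.37e-04), Gars1 97.1 to 140 FPKM later and 146 to 178 FPKM earlier (-0.48 ± 0.07) and Cars1 11.6 to 16.2 FPKM later and 16.5 to 20.1 FPKM earlier (-0.40 ± 0.07). These 3 genes did not overlap between the groups. Ribosome biogenesis had 7 of 44 genes lower and 1 higher (median -0.07; 13 and 2 without replicate 1 of 96 h, and 4 lower without 9 other single libraries), with the nucleolar factors Heatr1 (-0.38 ± 0.09), Utp20 (-0.36 ± 0.08) and Nop56 (-0.29 ± 0.06) below and Nop10 (0.30 ± 0.08) above.

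Among 71 cytosolic ribosomal protein genes 0 passed in either direction. An unadjusted p below 0.05 in limma's test was reached by 4 of them, against 3502 of all 12259 genes. Their median change was 0.16, and 14 passed as higher without replicate 1 of 96 h. Genes of the oxidative stress list, among them targets of the factor NRF2, fell in 5 of 28 cases with 0 higher (median -0.04; 5 higher and 5 lower without replicate 1 of 96 h). The subunits of the glutathione-forming ligase had 32.0 to 51.4 FPKM later and 45.8 to 76.0 FPKM earlier for Gclm (-0.63 ± 0.09) and 21.8 to 33.4 FPKM later and 30.8 to 44.0 FPKM earlier for Gclc (-0.55 ± 0.10). Gsr, which regenerates glutathione, had 27.1 to 36.3 FPKM later and 36.8 to 46.9 FPKM earlier (-0.33 ± 0.06), and thioredoxin reductase, Txnrd1, fell by 0.28 ± 0.05.

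Of 15 iron genes 1 was higher and 1 lower, shares near those of all genes. The ferritin heavy chain gene Fth1, which stores iron, had 10747 to 15306 FPKM later and 5473 to 10779 FPKM earlier (0.74 ± 0.09, adjusted p = 2.53e-04), and the iron exporter gene Slc40a1 had 3.08 to 4.07 FPKM later and 4.62 to 5.76 FPKM earlier (-0.34 ± 0.06). Without replicate 1 of 96 h 5 iron genes were lower. Hmox1, which frees iron from haem, had a change of 0.43 ± 0.17 (adjusted p = 0.119, and 0.0181 without replicate 1 of 96 h), and the transferrin receptor Tfrc one of -0.27 ± 0.12 (adjusted p = 0.143, and 0.0304 without replicate 1 of 96 h).

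In each list of central metabolism 1 or 2 genes passed. Glycolysis had 2 of 25 genes higher and 0 lower (4 lower without replicate 1 of 96 h), the tricarboxylic acid cycle 0 of 23 higher and 1 lower, and nuclear-encoded oxidative phosphorylation 1 of 21 higher and 0 lower (6 and 1 without replicate 1 of 96 h). Pfkfb3, which makes the activator of phosphofructokinase, had medians of 21.4 FPKM later and 17.1 FPKM earlier (0.29 ± 0.05, adjusted p = 0.00297). Gapdh ran from 1243 to 6360 FPKM later and from 814 to 4856 FPKM earlier (0.54 ± 0.40, adjusted p = 0.377), and Actb from 1110 to 3449 FPKM later and from 915 to 2610 FPKM earlier (0.43 ± 0.26, adjusted p = 0.282). Both are common reference genes, and both spread widely within a time.

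Of 22 cholesterol synthesis genes 2 fell and 0 rose (median -0.04; 3 lower without replicate 1 of 96 h and 1 without any 1 of 12 others). Hsd17b7 had 17.2 to 22.7 FPKM later and 24.2 to 29.5 FPKM earlier (-0.41 ± 0.05, adjusted p = 1.24e-04), with no overlap, while Hmgcs1, the synthase at the start of the pathway, did not pass (-0.12 ± 0.09, adjusted p = 0.391). Acly, which supplies acetyl-CoA for fat and sterol synthesis, fell by 0.28 ± 0.05. Lipid carriers rose in 4 of 17 cases with 0 lower (median 0.23; 8 higher without replicate 1 of 96 h and 2 without replicate 2), among them the secreted chaperone Clu with medians of 32.9 FPKM later and 15.4 FPKM earlier (1.10 ± 0.21), and the fatty acid receptor Cd36 (0.56 ± 0.11).

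Nucleotide and polyamine synthesis had 6 of 24 genes lower and 2 higher (median -0.18; 11 and 2 without replicate 1 of 96 h, and 1 higher without any 1 of 11 others), with Umps (-0.36 ± 0.09) of the pyrimidine route and Impdh2 (-0.36 ± 0.07) of the purine route among the falls. Chaperone and unfolded protein response genes of the endoplasmic reticulum were higher in 3 of 29 cases and lower in 1 (median 0.11; 7 and 2 without replicate 1 of 96 h, 5 higher without replicate 1 of 84 h, 1 higher without replicate 4 of 72 h, replicate 4 of 84 h or replicate 2 or 3 of 96 h, and 0 lower without any 1 of 9 libraries). P4hb, a disulfide isomerase, had 483 to 553 FPKM later and 397 to 470 FPKM earlier (0.21 ± 0.05), while the chaperone Hspa5 did not pass (0.14 ± 0.08, adjusted p = 0.254). Cytosolic chaperones were lower in 4 of 24 cases and higher in 0 (median -0.16; 7 and 2 without replicate 1 of 96 h, 7 lower without replicate 4 of 108 h, and 2 lower without any 1 of 11 others, which are replicates 1, 2 and 4 of 72 h, 2 and 3 of 84 h, 2, 3 and 4 of 96 h and 1, 2 and 3 of 108 h), with the Hsp90 gene Hsp90aa1 (-0.43 ± 0.11) and its cochaperone Stip1 (141 to 187 FPKM later, 194 to 221 FPKM earlier; -0.30 ± 0.06) among them. Further lists, to be read beside the 4.01% higher and 7.81% lower of all genes, were the YAP and TGF-beta targets (3 of 18 higher, 0 lower), the hypoxia response (2 of 19 higher, 1 lower), fatty acid and phospholipid synthesis (2 of 19 higher, 3 lower), amino acid transport and breakdown (2 of 27 higher, 2 lower) and p53 targets (1 of 22 higher, 1 lower). Without replicate 1 of 96 h their counts were 5 and 1, 6 and 1, 2 and 4, 6 and 4, and 3 and 2, in that order. In that fit 1616 of all 12259 genes were higher and 2051 lower, so these counts are to be read beside those totals. Higher calls numbered 1 for the YAP and TGF-beta targets without any 1 of 10 other libraries (all but replicates 1 and 3 of 72 h, 1 and 2 of 84 h and 4 of 108 h). For amino acid transport and breakdown they numbered 0 without any 1 of 8 (replicates 1 and 2 of 72 h, 3 of 84 h, 2, 3 and 4 of 96 h and 2 and 3 of 108 h) and 1 without any 1 of 6. Lower calls numbered 1 for fatty acid and phospholipid synthesis without any 1 of 8 (replicates 1 and 2 of 72 h, 2 and 3 of 84 h, 2, 3 and 4 of 96 h and 1 of 108 h) and 0 for the hypoxia response without any 1 of 12. The lone calls of the tricarboxylic acid cycle and of oxidative phosphorylation were each lost without any 1 of 13 libraries, and glycolysis had 1 gene higher without any 1 of 11. Of 29 proteasome genes 1 was lower and 0 higher (2 lower and 3 higher without replicate 1 of 96 h).

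The shift did not pass at each 12 h step. From 72 h to 84 h 10 genes were higher (0.0816%) and 4 lower (0.0326%) at 84 h. From 84 h to 96 h 0 passed (0.0%) and from 96 h to 108 h 0 passed (0.0%) in limma's test. An unadjusted p below 0.05 in that test was reached by 1089 and 435 of the 12259 genes, in that order. Chance alone gives a share of about 0.05, which is fewer genes than the 1089 and more than the 435. The 435 genes are thus no sign of a change from 96 h to 108 h. The genes called in the early shift had median steps of 0.15, 0.30 and 0.21 for the rises and of -0.08, -0.26 and -0.14 for the falls, in the order of time. The comparison that chose these genes gives the middle step more weight than the outer ones. Their larger middle step is thus partly set by the choice and does not date the shift. The steps of all genes had medians of -0.03, 0.01 and 0.02. With array weights, which give outlying libraries less weight, 1982 genes were higher and 2392 lower at 96 h than at 84 h. In that fit replicate 2 of 84 h had a weight of 6.474, against 0.1291 to 1.215 for the others of 84 h. Its 84 h level thus rested largely on 1 library.

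The 14 genes of the step to 84 h include some of the largest early rises. Il33 had 189 ± 13.0 FPKM at 84 h and 58.0 ± 14.3 FPKM at 72 h (SD, n = 4; log2 change 1.72 ± 0.20, adjusted p = 0.00310). Aqp1, a water channel, had 55.6 ± 3.15 FPKM at 84 h and 127 ± 7.90 FPKM at 72 h, and its means of 60.6 and 51.5 FPKM at 96 h and 108 h stayed near the 84 h value. Rbm3, a cold-inducible RNA-binding protein, had 127 ± 14.5 FPKM at 84 h and 68.9 ± 13.0 FPKM at 72 h, and then 102 ± 7.98 and 106 ± 10.5 FPKM at 96 h and 108 h. Ereg, a ligand of the EGF receptor, also peaked at 84 h among these times, at 136 ± 18.6 FPKM, against 74.0 ± 12.8 FPKM at 72 h. The call of the step rests on few libraries, and between 3 and 15 genes were higher and between 1 and 7 lower when single libraries were left out.

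**Figure D3:**
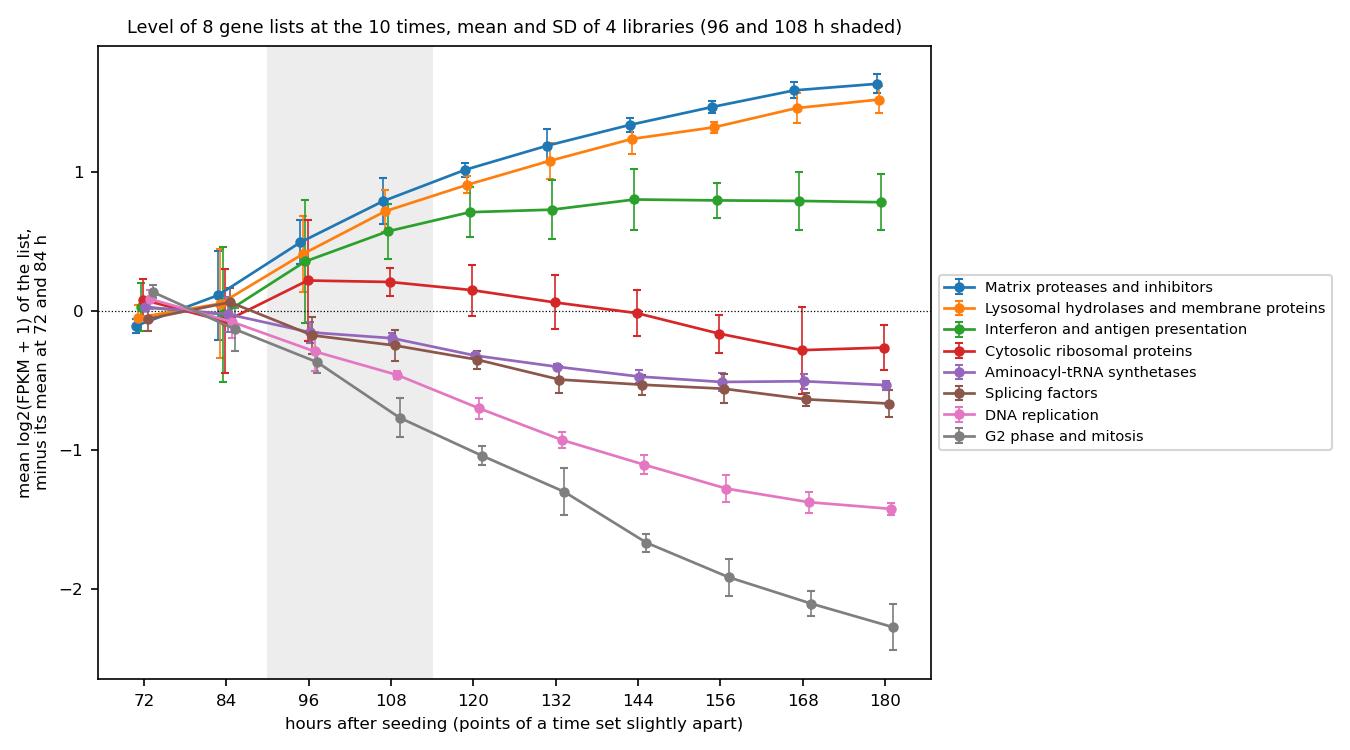
Mean log2(FPKM + 1) of 8 gene lists at the 10 times (horizontal axis, hours after seeding), less the list's own mean at 72 and 84 h; points are means and bars the SD of 4 libraries, and 96 and 108 h are shaded. Mitosis and DNA replication genes fall and lysosomal and matrix protease genes rise at each time shown after 84 h, whereas ribosomal protein genes lie highest at 96 h and below their 72 and 84 h level from 144 h.

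Many of the genes of the early shift continued in the same direction in libraries that the shift did not use. At 168 and 180 h against 120 and 132 h, 4.64% of all genes were higher and 12.0% lower. Of the 491 early rises 219 (44.6%) were higher again and 19 (3.87%) were lower. Of the 957 early falls 507 were lower again and 3 (0.313%) were higher. With median-ratio scaling the later comparison had 982 genes higher and 911 lower in place of 569 and 1472, so the balance of its calls rests on the scaling.

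All 47 mitotic genes and 31 of 42 replication genes were lower in the later comparison, with medians of -0.98 and -0.60. Of 43 lysosomal genes 31 were higher (median 0.47) and of 21 matrix protease genes 13 were higher and 1 was lower (median 0.51). The aminoacyl-tRNA synthetases had 6 of 20 lower (median -0.14). Ctsb had 560 to 1043 FPKM at 96 and 108 h, and its later change was 1.24, larger than its early change of 0.91, a difference that was not tested. Vcam1, an adhesion molecule, rose by 0.35 ± 0.09 early at levels below 1 FPKM, and by 1.32 later.

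**Figure D4:**
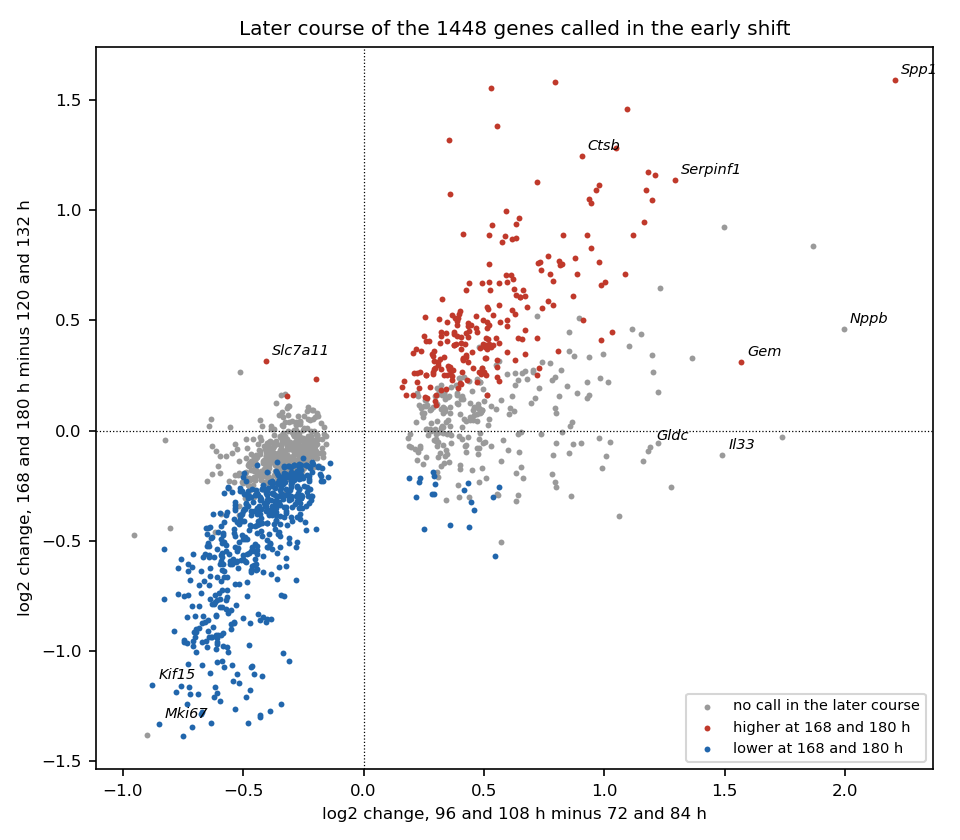
Log2 change at 96 and 108 h minus 72 and 84 h (horizontal axis) and at 168 and 180 h minus 120 and 132 h (vertical axis) for the 1448 genes called in the early shift, 1 point per gene; red and blue points passed as higher or lower in the later comparison and grey points did not pass. Of the rises (right) 219 are red and 19 blue, and of the falls (left) 507 are blue and 3 red, with Slc7a11 among those 3.

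Other early changes were not called again in the same direction. Nppb, Il33, Tgm2, Nupr1, Gldc, Cd63, S100a4, Lif and Csf2 were called early, and their later changes, between -0.11 and 0.46, did not pass. Gldc had a mean of 8.70 ± 1.39 FPKM at 108 h and 7.66 FPKM at 180 h. The 3 falls that turned upward were Slc7a11, the galactosyltransferase gene B3galt6 and the palmitoyltransferase gene Zdhhc24, of which the call of B3galt6 held in 6 of the 16 fits without 1 library. Slc7a11 had 17.7 to 24.5 FPKM (median 20.8) at 168 and 180 h and 14.1 to 18.3 FPKM (median 16.7) at 120 and 132 h.

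Rises that turned downward included the galectin Lgals3, S100a11, the glutathione transferase Gsto1, profilin, Pfn1, which binds actin monomers, and Mpc1, a subunit of the mitochondrial pyruvate carrier. Lgals3 had 1048 to 1251 FPKM at 96 and 108 h and 641 to 923 FPKM at 72 and 84 h (0.56 ± 0.06, adjusted p = 5.07e-05), with no overlap. It then had medians of 1051 FPKM at 168 and 180 h and 1283 FPKM at 120 and 132 h. Mpc1 had 87.6 to 131 FPKM later and 53.1 to 85.4 FPKM earlier in the early shift (0.45 ± 0.09), also with no overlap, and medians of 80.8 FPKM at 168 and 180 h and 104 FPKM at 120 and 132 h.

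The early shift was also set against the same span at the end of the culture, 168 and 180 h against 144 and 156 h, where 61 genes (0.498%) were higher and 106 (0.865%) lower, or 1.36% in either direction. The early change minus the end change was positive for 243 genes (1.98%) and negative for 263 (2.15%), or 4.13% in either direction. Among the early rises 198 of 491 (40.3%) had a positive difference, and among the early falls 237 of 957 (24.8%) a negative one, shares that the choice of genes by their early change raises. These counts rest on single libraries too, at 1100 and 1012 without replicate 1 of 96 h and 449 and 422 without replicate 1 of 84 h.

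The early change exceeded the end change by 1.66 for Il33, 1.95 for Nppb, 1.51 for Gem, 1.53 for Spp1 and 1.26 for Gldc (adjusted p = 5.07e-08, 0.00911, 1.18e-09, 2.33e-05 and 2.46e-09, in that order). For synthetases and genes of the oxidative stress list the difference was negative in 6 of 20 and 5 of 28 and positive in 0. It was -0.54 for Iars1 and -0.70 for Gclm. Mitotic genes fell in both spans. Their difference was negative in 1 of 47, and at the end of the culture 25 of 47 were lower with a median change of -0.39.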

How the data were processed

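Poly(A) RNA was sequenced from 40 libraries of CHO-S batch culture, 4 at each of 10 times. Per the submitters' processing notes the tools were FastQC, Trimmomatic 0.32, SAMtools 1.0 and Cufflinks 2.2.1. Of the aligner, genome build, annotation and strand setting, each was not given in the sources used here. The authors deposited FPKM values per gene line, with no counts, so the absolute depth is unknown.

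Lines of the same gene ID were summed, and lines without an ID (23 in each file, all at 0) were left out. Of 26793 IDs, 23196 matched a RefSeq gene table used for names only. The filter kept the 12259 genes that reached 1 FPKM in 4 or more of the 40 libraries. The log2(FPKM + 1) values of the 16 libraries were fitted with limma 3.58.1 in R 4.3.3 (1 mean per time, 12 residual degrees of freedom, eBayes with trend and robust settings), and p-values were adjusted over all 12259 genes by the Benjamini-Hochberg method at 0.05. The comparisons with later times used all 40 libraries (30 residual degrees of freedom). The procedure was run on simulated data with noise drawn separately for each gene and library. The shared axis within times was not part of that simulation, so it does not bear on calls that the axis affects. Alternatives changed the pseudocount, filter, scaling, weights, covariates, libraries and lines per gene. Genes named were the largest called changes, called list members and a set chosen by name. The members and gene lists were chosen with earlier results of these data known. Genes with near-identical copies can share reads. Some genes of the lists are counted but not reported here by name.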

Additional observations from a re-analysis of the deposited data

Results flagged for a closer look

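For 138 named genes, the highest or lowest library of each time was compared with the other 3 libraries of that time by Dixon's gap criterion, in 552 groups of 4 libraries. Chance alone marks about 1 in 20 such groups, and 33 groups were marked. Of these, 16 were in replicate 1 of 96 h and 2 in replicate 4 of 84 h.

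The libraries that stood apart had these values, in FPKM. In replicate 1 of 96 h they were Tgm2 407, Ctsa 407, Aebp1 45, Myl9 1.39, Sparc 487, Pdgfrb 20.7, Bnip3 41.4, Suclg2 142, Stip1 187, Stard4 25.4, Umps 29.1, Paics 133, Plk2 9.66, Orc1 11.9, Cdc6 12.9 and Ect2 46.3. In replicate 2 of 108 h the value was Fth1 15306. In replicate 3 of 108 h the value was Ndufa4 332. In replicate 4 of 108 h the values were Spry2 28.8, Manf 668, Suclg2 145 and Tfrc 134. In replicate 2 of 72 h the values were Myl9 0.956 and Kif15 47. In replicate 3 of 72 h the value was Ddit3 75.9. In replicate 4 of 72 h the values were Spp1 42.5, Ctsb 325, Bid 33.7, Manf 374 and Slc7a11 28.5. In replicate 4 of 84 h the values were Bnip3 41.7 and Stc2 6.09. In replicate 2 of 96 h the value was Asns 24.1. 

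Spp1 in replicate 4 of 72 h had 42.5 FPKM, below the 83.8 to 89.9 FPKM of the other 3 libraries of that time, and Tgm2 in replicate 1 of 96 h had 407 FPKM, below their 799 to 869 FPKM. Of the 138 named genes 0 passed in opposite directions in the early shift and the end-of-culture span with a difference that also passed.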

How the results depend on the processing

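The counts of the early shift, 491 genes higher and 957 lower, were 1192 and 1820 with all 40 libraries in the fit, 3697 and 3891 with array weights, 3411 and 3107 with the axis within times as a covariate, and 1515 and 2036 without replicate 4 of 84 h and replicate 1 of 96 h. Leaving out single libraries gave 334 to 1616 and 622 to 2051. The higher share of calls was 33.9%, against 48.7% with array weights, 52.3% with the axis and 44.1% without replicate 1 of 96 h. Fits with all 40 libraries or with the axis keep the log2 changes unaltered, so no direction could turn in them. The same holds for fits with other filters, with genes on 1 line only or with the replicate block. The axis was drawn from the spread of the same libraries, so its counts are no separate check. Array weights were highest for replicate 2 of 84 h, at 6.474. In the other fits no called gene was called in the opposite direction. Uncalled genes did: Cdkn1a ran from -0.0181 (without replicate 1 of 72 h) to 0.2446 without single libraries. Mcm2 was 0.1206 with array weights and ran from -0.2185 to 0.1081 without single libraries, and was above 0 in 6 of these fits. In 6 of 24 same-number pairs the deviations from the time means correlated above 0.1. All 6 were pairs of 72 with 96 h or of 84 with 108 h (0.345 to 0.703). The remaining pairs of these times had 0.066 and -0.0229, and pairs of other times ran down to -0.779. A pairing of 72 with 96 h and of 84 with 108 h was thus not excluded, and no fit tested it. With a replicate block shared by all times, which cannot hold such a pairing, 610 genes were lower in the early shift. The step to 84 h (10 higher, 4 lower) had 4 and 1 calls with the block, 91 and 70 calls with all 40 libraries, 451 and 572 with weights, 583 and 1275 with the axis, 35 and 13 without both libraries, 7 lower with a filter of 5 FPKM, and 3 to 15 and 1 to 7 without single libraries. The step to 96 h (0 and 0) had 17 and 35, 1982 and 2392, and 2318 and 1773 in the first 3 of these settings, and 0 to 1 and 0 to 2 without single libraries. The step to 108 h (0 and 0) had 4 and 3, 101 and 134, and 423 and 286 there, 1 lower without both, and 0 to 0 and 0 to 1 without single libraries. The early change minus the end change (243 positive, 263 negative) had 3759 and 3253 with weights, 3207 and 2153 with the axis, 688 and 702 without both, and 187 to 1100 and 147 to 1012 without single libraries. The later comparison (569 and 1472) had 982 and 911 with median-ratio scaling, 1196 and 3358 with weights, 1309 and 3705 with the axis, and 558 to 644 and 1436 to 1662 without single libraries. The causes were not tested. The unknown absolute depth limits statements on low genes.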

Other observations

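Families of genes were picked by symbol after the values were seen and are therefore given as description. Of their 121 measured genes 12, among them S100a4, Txnrd1 and Smc2, also stand in the lists of the report and are counted there too. Of 17 measured condensin and cohesin genes, which fold and hold together chromosomes, 13 were lower at 96 and 108 h and 0 were higher, with a median log2 change of -0.48. Ncaph changed by -0.61 and Ncapg2 by -0.57. Of 22 nuclear pore genes 15 were lower and 0 higher (median -0.35), among them Nup133 at -0.34, and of 23 importin and exportin genes, which carry cargo through the pore, 12 were lower and 0 higher (median -0.30), with Kpnb1 at -0.50 and Cse1l at -0.58. Centromere genes were lower in 10 of 20 cases (median -0.39), Fanconi genes in 6 of 8 (median -0.46) and mismatch repair genes in 5 of 8 (median -0.44), with 0 higher in each.

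The S100 calcium-binding proteins went the other way, with 6 of 8 measured genes higher and 0 lower (median 0.62). S100a10 changed by 0.66 and S100a13 by 0.57. Of 7 SMAD genes, which carry signals of the TGF-beta family, 1 was lower, Smad3 at -0.50. Selenoprotein genes had 1 of 5 higher and 1 lower, and natriuretic peptide system genes 2 of 3 higher. A setting without replicate 4 of 84 h and replicate 1 of 96 h was added after the data were seen for these families. In it 1515 of all 12259 genes were higher and 2036 lower. There 8 of 8 S100 genes were higher, 5 of 7 SMAD genes lower and 1 higher, and 4 of 5 selenoprotein genes higher and 1 lower. Centromere genes had 15 of 20 lower and 1 higher. Lower calls numbered 16 of 17 for condensin and cohesin, 18 of 22 for nuclear pore and 18 of 23 for importin and exportin genes. They numbered 6 of 8 for Fanconi and 6 of 8 for mismatch repair genes, with 0 higher in these 5 families. Natriuretic peptide system genes stayed at 2 of 3 higher.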
